A study of Mus musculus with 16 samples.

Results

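The genes of the 4 mouse Hox clusters and the antisense RNA Hottip, which lies beside the last gene of the a cluster, were read in organoids of the mouse colon. They were chosen by gene name, from a list whose rule holds no measured value. The list holds 38 Hox genes (10 of the a cluster, 10 of the b cluster, 9 of the c cluster and 9 of the d cluster) and Hottip, 39 of the 54123 genes to which transcripts were summed. The RNA came from proximal and distal colon organoids that carried a scramble-sgRNA (control) or a Cdx2-sgRNA, and each was kept with (WENR-plus) or without (WENR-minus) niche factors, so that there are 8 groups of 2 libraries. Those factors are Wnt3a, EGF, Noggin and R-spondin-1.

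The donors were female mice of 8 weeks, and every group carried a heterozygous Cre-inducible BrafV600E allele and a heterozygous tdTomato reporter, for which the labels name no Cre treatment in these libraries. Cas9 and the guide came by lentivirus. Each Cdx2-sgRNA culture was grown from a single clone with a frameshift in Cdx2, while no cloning is described for the scramble-sgRNA cultures, so that cloning and loss of Cdx2 cannot be told apart. The cultures were 4 months old when they were plated for 2 days in WENR-plus medium, followed by 3 days in either medium. The study's organoids came from 2 mice and the replicates are labelled biological, but which number stands for which mouse is not stated, so that p-values measure the spread between these libraries.

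Hox genes encode transcription factors that give cells their position along the head-to-tail axis of the embryo. Their order in a cluster follows the order of their domains along the body, with low paralogue numbers expressed toward the head and numbers 9 to 13 toward the tail, and the gut keeps part of this code in its adult epithelium. Cdx2, a homeobox factor of the intestinal lineage, belongs to a family known to act upstream of Hox genes in the embryo. Hottip is transcribed from the tail end of the a cluster, on the opposite strand to Hoxa13, and is known for binding Wdr5, a subunit of the complexes that methylate histone H3.

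Reads were estimated counts per gene, and CPM is the count scaled to library size, with TMM factors except for the marker sums. Levels of different genes were compared only in TPM, which corrects for transcript length. A gene was taken to be at the floor in a group whose libraries all held at most 3 reads of it. Against such a group no fitted fold change is given. In its place stands a bound computed with 3 reads per library. Calls were made with the quasi-likelihood test of edgeR over 15289 tested genes, and needed both an adjusted p below 0.05 and a log2 fold change beyond 1 in either direction. The libraries held 12465194 to 18922143 counts (median 16836530), of which 15.4 to 28% were mitochondrial ribosomal RNA, and 3034 to 7751 reads per library fell on the 39 genes.

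Epithelial markers were high in every library and those of other cell types were low. The sum over 8 epithelial markers (Epcam, Cdh1, Vil1, Krt8, Krt18, Krt19, Krt20 and Cldn7) ran from 4877 to 15340 CPM. That over 11 mesenchymal markers ran from 0.772 to 18.1, over 5 immune markers from 0 to 21.9, over 3 endothelial markers from 0 to 1.52 and over 5 markers of nerve and glia from 0.535 to 3.19. Dcn and Lum, which define fibroblasts, were at 0 reads in all 16 libraries, while Vim and Pdgfrb, which mesenchymal cells also express, had up to 175 and 138 reads.

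Of the 39 members, 24 passed the filter on low counts and 15 did not. Of those 15, 14 had at most 3 reads in every library and 7 of these had none in any. The silent members are all 9 genes of the c cluster, Hoxb1, and the tail end of the d cluster (Hoxd10, Hoxd11, Hoxd12 and Hoxd13). The remaining member below the filter was Hoxd3, with 17 and 7 reads in proximal scramble-sgRNA WENR-plus organoids and none in any distal library. The c cluster (chr15:102921103-103036852, GRCm38) thus had no member above 3 reads in 16 libraries, which at this depth limits its level without showing that it is absent.

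**Figure D1:**
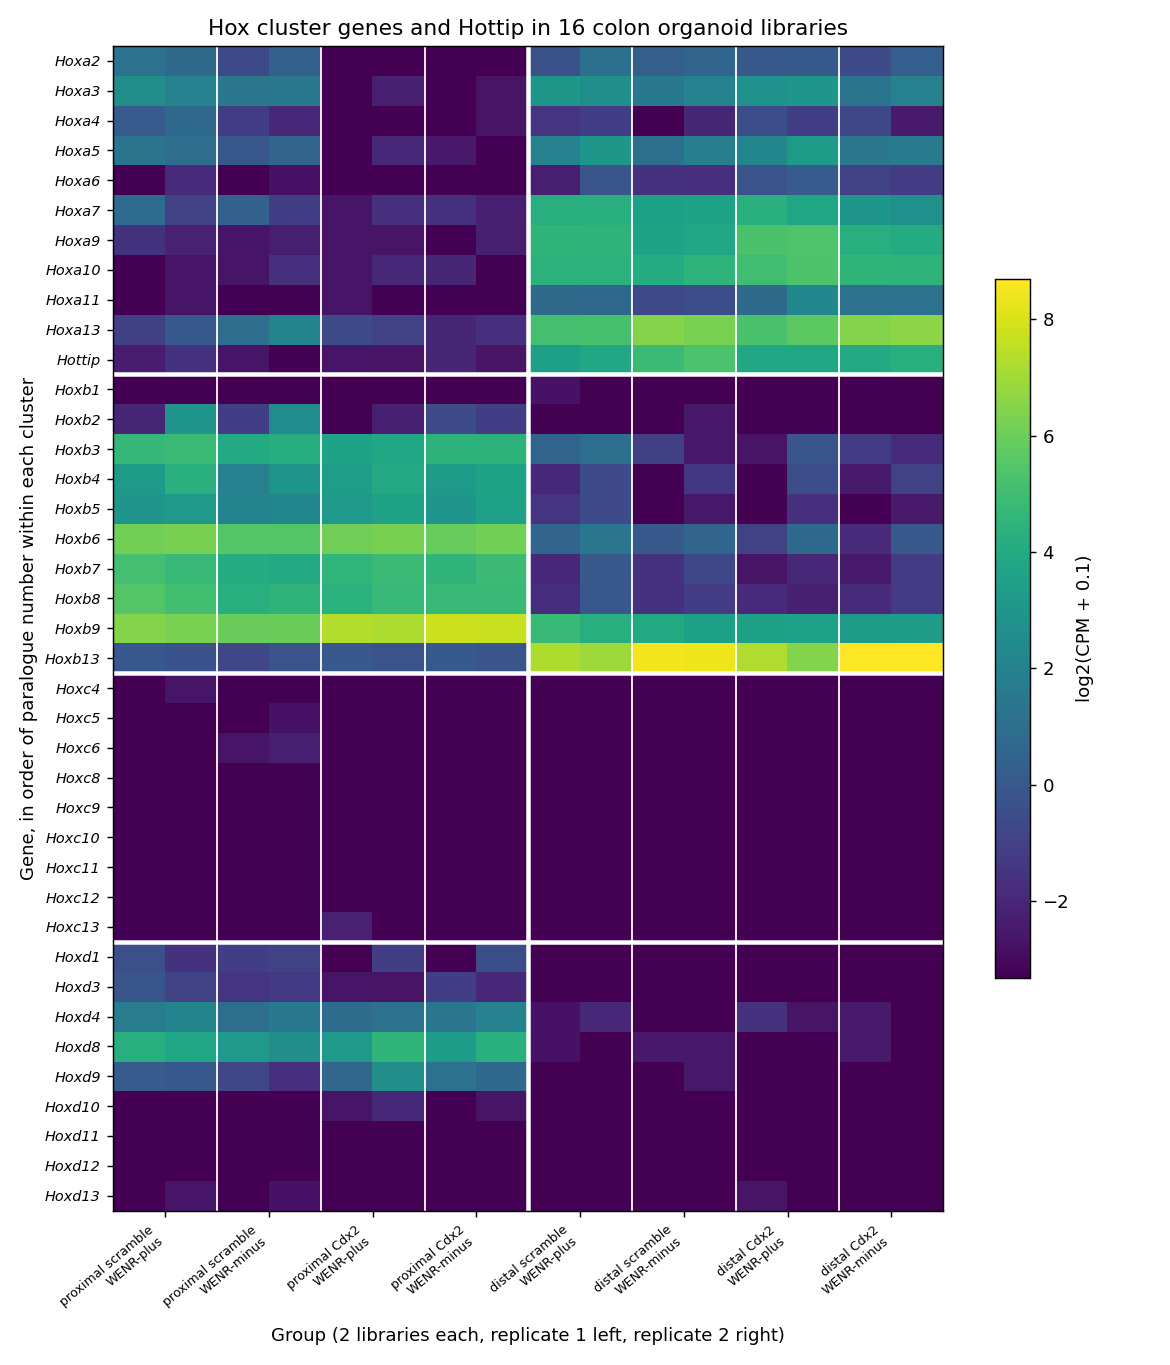
Level of the 39 members in the 16 libraries, as log2(CPM + 0.1), with genes in order of paralogue number within the a, b, c and d clusters (white horizontal lines) and 2 libraries per group side by side. The b cluster from Hoxb3 to Hoxb9 and the d cluster from Hoxd4 to Hoxd9 are bright in proximal libraries. The tail end of the a cluster, Hottip and Hoxb13 are bright in distal ones.

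The tail end of the a cluster holds 2 starts that face away from each other. Hoxa13 lies on the minus strand and begins at chr6:52260880 (GRCm38), and Hottip begins 1895 bases further on the plus strand. RefSeq promoter windows (GRCm38.p6, from 250 bases before to 50 bases after a start) were at hand for 23 members with 25 windows. They were searched on both strands for CAATAAA, a heptamer that Cdx and tail-end Hox proteins prefer, and for TATAAA, the TATA box core. CAATAAA was found in 3 of the 25 windows (12%) and in 1511 of 32851 windows of all genes (4.6%). TATAAA was found in 4 of the 25 (16%) and in 4473 of all (13.6%), and no match to the heptamer overlapped a match to the TATA box core. The GC content of the 25 windows was 39.7 to 81% with a median of 57.3%, against a median of 52.7% over all windows.

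The stretches that hold the heptamer upstream of a start are shown for Hottip (chr6:52262525-52262584, plus strand) and Hoxb8 (chr11:96281753-96281823, plus strand), 1 member that was high in distal and 1 that was high in proximal organoids. Capitals mark the heptamer. In Hottip it begins 229 bases upstream of the start. In Hoxb8 it lies 120 bases upstream and reads on the minus strand, so that its reverse complement is printed.
Hottip: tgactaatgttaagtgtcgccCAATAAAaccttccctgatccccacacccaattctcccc
Hoxb8: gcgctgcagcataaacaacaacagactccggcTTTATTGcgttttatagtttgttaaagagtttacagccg
The third match was in Hoxd4, just after its start.

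For contrast, the last 100 bases before the start are shown for 3 genes of the a cluster that hold no such match, Hoxa2 (chr6:52164832-52164931), Hoxa5 (chr6:52204588-52204687) and Hoxa13 (chr6:52260881-52260980), all on the minus strand. Their reads fell in proximal Cdx2-sgRNA organoids, in both media for Hoxa2 and Hoxa5 and in WENR-minus medium for Hoxa13.
Hoxa2: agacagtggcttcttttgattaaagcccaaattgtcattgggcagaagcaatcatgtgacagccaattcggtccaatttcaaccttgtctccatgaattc
Hoxa5: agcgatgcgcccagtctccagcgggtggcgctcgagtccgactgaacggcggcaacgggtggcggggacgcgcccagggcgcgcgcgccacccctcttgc
Hoxa13: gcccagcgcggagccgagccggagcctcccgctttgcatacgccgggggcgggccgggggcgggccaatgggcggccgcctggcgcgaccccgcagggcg
A match is a description of the letters in these windows and no evidence of binding.

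The b cluster supplied most Hox transcripts of proximal organoids, and the a cluster and Hoxb13 those of distal ones. In proximal scramble-sgRNA libraries the b cluster (chr11:96194316-96368256) held 88.9 to 90.8% of the TPM of all members, the d cluster 4.47 to 7.11% and the a cluster 3.42 to 4.76%. In distal scramble-sgRNA libraries the a cluster held 40.5 to 46.2% in WENR-plus and 26.5 to 27.2% in WENR-minus medium, and the d cluster at most 0.0777%. The b cluster still held 49.3 to 68.7% there, because Hoxb13 alone had a mean TPM of 105.3 ± 12.2 (SD, n = 2) in WENR-plus and 201.2 ± 0.983 in WENR-minus medium. The summed TPM of all members ran from 137 to 349.9 over the 16 libraries and was lowest in the 2 proximal scramble-sgRNA WENR-minus libraries.

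**Figure D2:**
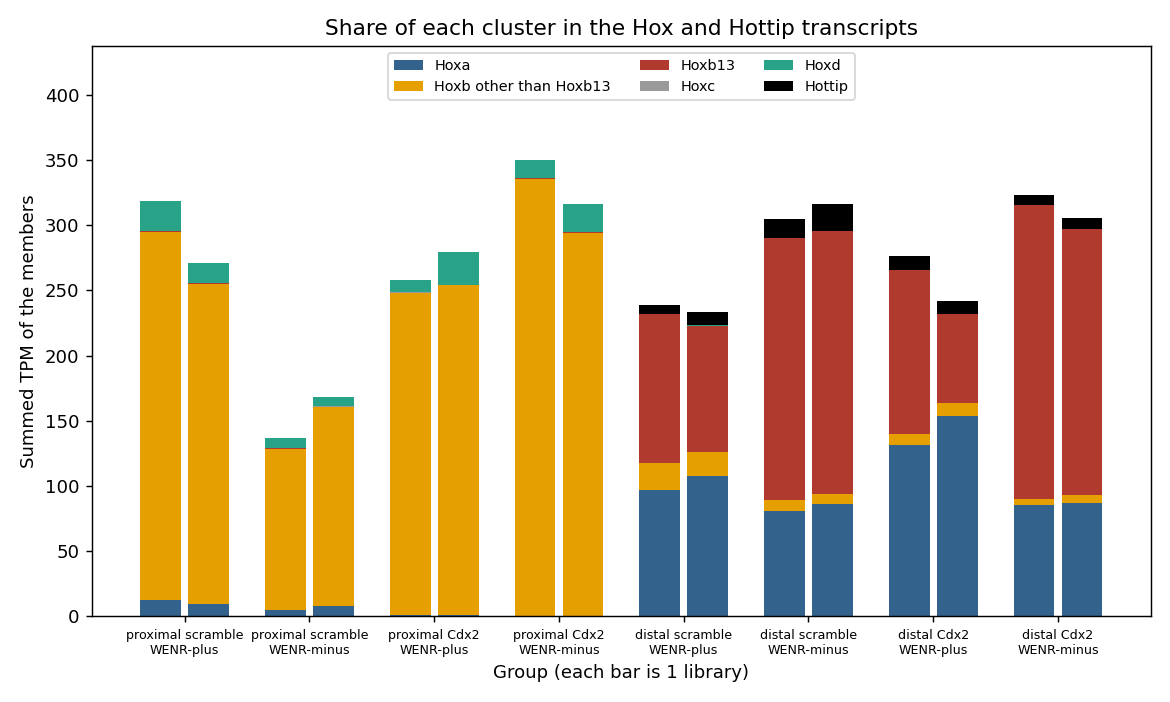
Summed TPM of the members in each of the 16 libraries (1 bar each, 2 per group), split into the a cluster, Hoxb13, the other genes of the b cluster, the c and d clusters and Hottip. Proximal bars consist mostly of the b cluster without Hoxb13, and distal bars of Hoxb13 and the a cluster.

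In the order of TPM, proximal scramble-sgRNA organoids in WENR-plus medium began with Hoxb6 (66.7 ± 2.76, SD, n = 2), Hoxb9 (57.2 ± 8.72), Hoxb8 (54.3 ± 13.9) and Hoxb7 (46.8 ± 10.9), and the ranges of Hoxb9, Hoxb8 and Hoxb7 overlapped. Then came Hoxb3 (19.3 ± 1.39), Hoxd8 (14.2 ± 4.66), Hoxb4 (9.79 ± 4.41) and Hoxb5 (6.25 ± 0.278), where the ranges of Hoxd8 (10.9 to 17.5) and Hoxb4 (6.67 to 12.9) overlapped. Distal scramble-sgRNA organoids in that medium began with Hoxb13, then Hoxa13 (26.9 ± 0.587), Hoxa9 (24.3 ± 3.06), Hoxa10 (20.3 ± 0.387), Hoxa7 (16.8 ± 0.202) and Hoxb9 (15.1 ± 4.07), with Hottip at 8.89 ± 2.02. The 2 libraries of Hoxa9 lay below those of Hoxa13 without overlap, by a margin smaller than the SD of Hoxa9, and those of Hoxa7 (16.7 to 17.0) lay within the range of Hoxb9 (12.2 to 18.0).

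The first comparison asked how proximal and distal organoids differed with the scramble-sgRNA. In WENR-minus medium 16 of the 24 members that passed the filter were called, 9 higher and 7 lower in proximal organoids, where 2.88% of all tested genes were called higher and 3.2% lower. In WENR-plus medium it was again 9 higher and 7 lower, with 0.68% and 1.07% of all tested genes. The same 16 members were called in both media. The median log2 fold change of the 24 members was 1.99 in WENR-minus medium, beside 0.07 over all tested genes, and 1.94 in WENR-plus medium, beside 0.00. As members were called in both directions, this median does not describe a shift of the whole set.

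The b cluster from Hoxb3 to Hoxb9 was higher in proximal organoids. Hoxb6 had 728 and 844 reads in proximal scramble-sgRNA WENR-minus libraries and 12 and 20 in distal ones. Hoxb8, a paralogue that also acts in blood progenitors, had 303 and 434 against 3 and 5. The libraries of the regions were far apart for both genes. The log2 fold change was 5.23 (SE 0.52, adjusted p = 0.000246, edgeR) for Hoxb6 and 6.09 (SE 0.50, adjusted p = 6.67e-05) for Hoxb8. Hoxb3 differed by 6.20 on the log2 scale (SE 0.71, adjusted p = 0.000586), Hoxb4 by 5.16 (SE 1.17, adjusted p = 0.019) and Hoxb7 by 5.46 (SE 0.60, adjusted p = 0.000456). Hoxb5 was at the floor in distal organoids and at least 19.6-fold higher in proximal ones (adjusted p = 0.0021). In WENR-plus medium the values of Hoxb3 to Hoxb8 ran from 4.05 (Hoxb3) to 6.19 (Hoxb8).

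Hoxb9, the next gene of the cluster, was shared by both regions. It had 1002 and 1238 reads in proximal and 204 and 151 in distal scramble-sgRNA WENR-minus libraries, and 1852 and 1320 against 551 and 341 in WENR-plus medium. Proximal libraries were higher without overlap. Its log2 fold change without niche factors was 2.26 (adjusted p = 0.000136, SE 0.21, edgeR) and with them 1.86 (adjusted p = 0.000665, SE 0.20), the smallest among the members called higher that were above the floor in both regions.

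Hoxb13, the last gene of the b cluster and a marker of the hindgut, went the other way. It had 4714 and 4745 reads in distal scramble-sgRNA WENR-minus libraries and 8 and 14 in proximal ones. In WENR-plus medium it had 2980 and 2282 against 18 and 12. The log2 fold change of proximal against distal was −9.13 (SE 0.35, adjusted p = 2.74e-07, edgeR) and −7.41 (SE 0.33, adjusted p = 1.3e-06). The switch of direction thus fell between Hoxb9 and Hoxb13, neighbours on the list with no b-cluster paralogue between them. Hoxb2 differed between the replicates. Its reads in proximal scramble-sgRNA libraries were 3 and 128 in WENR-plus and 6 and 108 in WENR-minus medium, and the region test gave adjusted p = 0.18 and 0.142 (edgeR). In proximal Cdx2-sgRNA libraries it had 0 and 2, then 8 and 7 reads, and edgeR did not call it between the guides (adjusted p = 0.0769 and 0.271). Between the regions it was called without the filter on low counts (adjusted p = 1.06e-09 and 1.43e-06, edgeR) and, in WENR-plus medium, by DESeq2 (0.0178).

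**Figure D3:**
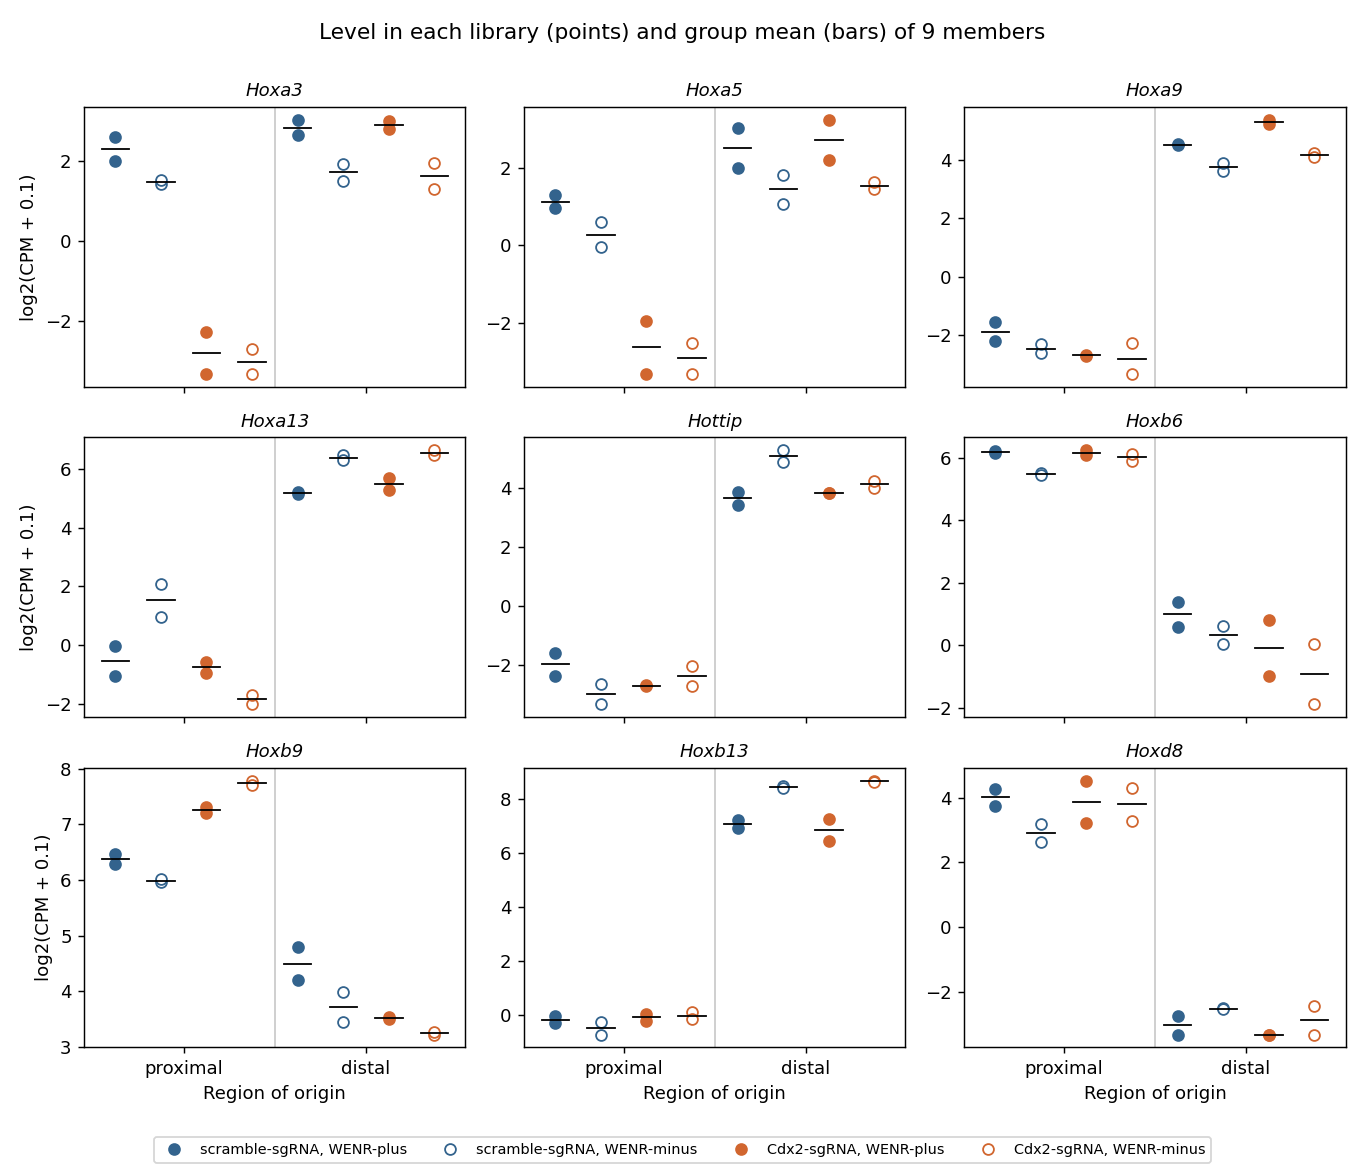
Level of 9 members in each library, as log2(CPM + 0.1), for proximal (left of each panel) and distal organoids, with scramble-sgRNA in blue, Cdx2-sgRNA in orange, WENR-plus medium as filled and WENR-minus as open points, and the mean of 2 libraries as a bar. Hoxa9, Hottip, Hoxa13 and Hoxb13 separate the regions in 1 direction and Hoxb6, Hoxb9 and Hoxd8 in the other, and Hoxa3 and Hoxa5 are lowest in proximal Cdx2-sgRNA libraries.

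In the d cluster (chr2:74668310-74765142) Hoxd4 and Hoxd8 were called, both higher in proximal organoids. Hoxd8 had 404 and 223 reads in proximal scramble-sgRNA WENR-plus and 144 and 117 in WENR-minus libraries, and at most 1 in any distal library. The excess in proximal organoids was at least 104-fold with niche factors (adjusted p = 0.000598, edgeR) and at least 33.7-fold without them (adjusted p = 0.00153). Hoxd4 had 69 and 70 reads, then 31 and 54, against at most 4 in any distal library, and was at least 23.9-fold (adjusted p = 0.00791) and at least 10.6-fold higher (adjusted p = 0.00249). Hoxd9 had 21 and 15 reads in WENR-plus and 8 and 4 in WENR-minus medium and was not called by edgeR (adjusted p = 0.0533 and 0.182). In WENR-plus medium it was called higher in proximal organoids by DESeq2 (adjusted p = 0.00748) and without the filter on low counts (2.8e-05, edgeR). Hoxd1, with 4 to 14 reads in those libraries and none in distal ones, was not called either (adjusted p = 0.341 and 0.244). Hoxd3, which did not pass the filter on low counts, was called higher in proximal WENR-plus organoids without that filter (adjusted p = 0.0448, edgeR). No distal library held more than 4 reads of any d-cluster gene.

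The tail end of the a cluster was distal. Hoxa9 had 157 and 205 reads in distal scramble-sgRNA WENR-minus libraries and 1 and 2 in proximal ones. Hoxa10 had 223 and 318 against 1 and 4, and Hoxa13, the gene at the end of the cluster that acts in hindgut and limb, had 1153 and 1087 against 30 and 80. Hottip, beside it, had 384 and 543 against 1 and 0. All 4 separated the regions without overlap. Hoxa9 was at least 78.2-fold lower (adjusted p = 6.51e-06, edgeR) and Hottip at least 200.1-fold lower in proximal organoids (adjusted p = 4.85e-06). The log2 fold change was −7.08 (SE 0.56, adjusted p = 4.88e-05) for Hoxa10 and −4.77 (SE 0.36, adjusted p = 3.76e-05) for Hoxa13.

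In WENR-plus medium Hoxa10 had 415 and 390 reads in distal and 0 and 1 in proximal scramble-sgRNA libraries, and was at least 130.1-fold lower in the latter (adjusted p = 3.01e-05, edgeR). Hoxa13 (710 and 691 against 8 and 15 reads) differed by −5.86 on the log2 scale (SE 0.41, adjusted p = 3.01e-05) and Hottip (215 and 271 against 2 and 4) by −6.24 (SE 0.45, adjusted p = 3.01e-05). Hoxa7 was intermediate, with 36 and 7 reads in proximal and 367 and 348 in distal libraries (log2 fold change −4.08, SE 0.61, adjusted p = 0.00642). Hoxa11 was low, with 34 and 29 against 0 and 1 reads (at least 10.2-fold lower, adjusted p = 0.0284).

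No gene at the head end of the a cluster was called between the regions. Hoxa2, the most anterior member, had 44 and 28 reads in proximal and 14 and 37 in distal scramble-sgRNA WENR-plus libraries, which overlap (adjusted p = 0.814, edgeR). Hoxa3 had 126 and 67 against 163 and 115 (adjusted p = 0.685), and Hoxa5, which also acts in the lung and gut, had 49 and 31 against 78 and 149. Hoxa5 was lower in both proximal libraries, with a log2 fold change of −1.51 (SE 0.63) that did not pass the test (adjusted p = 0.305). Hoxa4 was higher in both proximal libraries, with 21 and 27 against 5 and 7 reads, and a log2 fold change of 2.03 (SE 0.92) that did not pass either (adjusted p = 0.358). Hoxa6 had 0 and 3 against 2 and 15 reads (adjusted p = 0.473). Along the a cluster the region difference thus came in at Hoxa7 among the called members, and a p that misses the threshold does not show that Hoxa2 to Hoxa6 are equal.

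Some of these calls were lost when a single library was left out. Without either library of a group in turn, Hoxa11 lost its call in both media for each of the 4 libraries (adjusted p = 0.0609 to 0.117 in WENR-minus and 0.0811 to 0.215 in WENR-plus medium, edgeR), and Hoxb4 lost it for each of the 4 libraries in WENR-plus medium (0.0603 to 0.172). In WENR-minus medium Hoxb4 lost it without distal replicate 1 (0.115), distal replicate 2 (0.0624) or proximal replicate 2 (0.0965). In WENR-plus medium Hoxb3 (0.0591), Hoxb5 (0.0856) and Hoxd4 (0.0822) lost it without distal replicate 1, and Hoxd4 (0.0523) and Hoxa7 (0.0542) without proximal replicate 2. Every other call of this comparison was kept whichever library was left out. On the comparison's own libraries Hoxa11 also lost its call in both media (0.0792 and 0.0551).

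With the Cdx2-sgRNA more members, and more of all tested genes, were called between the regions. In WENR-minus medium 21 of the 24 tested members were called, 10 higher and 11 lower in proximal organoids (18.1% and 16.5% of all tested genes). In WENR-plus medium 22 were called, 10 higher and 12 lower (7.4% and 9.57%). The median log2 fold change of the members was 0.75 and −1.51, beside 0.13 and −0.01 over all tested genes. Hoxa2, Hoxa3, Hoxa5 and Hoxa6 were called lower in both media and Hoxa4 in WENR-plus medium, in addition to the members called with the scramble-sgRNA. Hoxd9, which with the scramble-sgRNA was called by DESeq2 in WENR-plus medium, was called higher in both media, at least 7.51-fold (adjusted p = 0.00332, edgeR) and at least 22.6-fold (adjusted p = 0.0025). Hoxb9 differed on the log2 scale by 4.51 without niche factors (SE 0.23, adjusted p = 1.54e-07) and by 3.74 with them (SE 0.22, adjusted p = 1.13e-06). Hoxa6 lost its call in both media without each of the 4 libraries in turn (adjusted p = 0.0545 to 0.144), and Hoxa4 without either proximal library or distal replicate 1 (0.0609 to 0.0831). On the comparison's own libraries Hoxa6 lost it in both media (0.0774 and 0.053) and Hoxa4 in WENR-plus medium (0.0841).

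The second comparison asked what the Cdx2-sgRNA changed within a region. Cdx2 itself checks the labels only in part, since a frameshift need not lower its RNA. It had 2964, 2148, 3269 and 2897 reads in proximal scramble-sgRNA and 515, 630, 995 and 1343 in proximal Cdx2-sgRNA libraries, a log2 fold change with niche factors of −2.09 (adjusted p = 5.48e-05, SE 0.21, edgeR) and without them of −1.29 (adjusted p = 0.000679, SE 0.20). In distal organoids it had 1263 to 1535 reads with the scramble-sgRNA and 949 to 1493 with the Cdx2-sgRNA and was not called. Cdx1, its paralogue, had 1129 to 2187 reads in proximal scramble-sgRNA and 4 to 16 in proximal Cdx2-sgRNA libraries, and 835 or more in every distal one.

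The members that edgeR called lower with the Cdx2-sgRNA in proximal organoids were genes of the a cluster, while other settings also called Hoxb2 lower. In WENR-minus medium 5 of the 24 members were called, 1 higher and 4 lower, where 9.04% of all tested genes were called higher and 12.1% lower, so that both shares are near or below the background. In WENR-plus medium 5 were called, all lower, beside 8.94% of all tested genes. These calls moved with the processing. Hoxb2 was called lower in WENR-plus medium by DESeq2 (adjusted p = 0.0358), without the filter on low counts (1.35e-07, edgeR) and under the replicate block (0.048), and in WENR-minus medium without the filter (0.00738). Without the filter on low counts 9 were called in WENR-minus medium, with Hoxa7, Hoxb2, Hoxb5 and Hoxd9 added, DESeq2 added Hoxa7 and Hoxb5 there, and on the comparison's own libraries 3 were called in WENR-plus medium, where Hoxa5 (adjusted p = 0.0517, edgeR) and Hoxa7 (0.141) were lost. The median log2 fold change of the 24 members was 0.18 and −0.81, beside 0.00 and −0.05 over all tested genes. None of the 10 a-cluster genes had over 3 reads in all 4 proximal Cdx2-sgRNA libraries, while 5 had in the 4 proximal scramble-sgRNA libraries.

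Hoxa3 fell from 126 and 67 to 0 and 2 reads in WENR-plus medium and from 42 and 54 to 0 and 1 in WENR-minus medium, at least 30.0-fold (adjusted p = 0.000108, edgeR) and at least 14.2-fold lower (adjusted p = 0.000154). Hoxa2 fell from 44 and 28, and from 9 and 24, to 0 in all 4 Cdx2-sgRNA libraries. It was at least 11.3-fold (adjusted p = 0.0013) and at least 4.74-fold lower (adjusted p = 0.00252). Both genes, which act in the hindbrain and pharynx of the embryo, thus went to the floor without overlap of the libraries.

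Hoxa5 fell from 49 and 31 to 0 and 3 reads in WENR-plus medium and from 14 and 27 to 1 and 0 in WENR-minus medium, at least 12.6-fold (adjusted p = 0.00374, edgeR) and at least 5.96-fold lower (adjusted p = 0.00516). Hoxa4 fell from 21 and 27 to 0 and 0 in WENR-plus medium (at least 7.82-fold, adjusted p = 0.00636), and in WENR-minus medium it started from 6 and 3 reads and was not called (adjusted p = 0.137). Hoxa7 had 36 and 7 reads against 1 and 4 in WENR-plus medium (log2 fold change −2.92, SE 0.80, adjusted p = 0.022) and 20 and 7 against 3 and 2 in WENR-minus medium (adjusted p = 0.0593). The Hoxa7 call in WENR-plus medium was lost without scramble-sgRNA replicate 1 (adjusted p = 0.293) or either Cdx2-sgRNA library (0.116 and 0.0511), and that of Hoxa5 in WENR-minus medium without Cdx2-sgRNA replicate 2 (0.0533).

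Hoxa13 depended on the medium. In WENR-minus medium it fell from 30 and 80 to 2 and 4 reads (log2 fold change −3.99, SE 0.52, adjusted p = 0.000231, edgeR). In WENR-plus medium it had 8 and 15 reads with the scramble-sgRNA and 10 and 8 with the Cdx2-sgRNA, which overlap (log2 fold change −0.30, SE 0.52, adjusted p = 0.709). Hoxa9, Hoxa10, Hoxa11 and Hottip had at most 5 reads in every proximal library and gave no fold change to compare.

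No b-cluster gene from Hoxb3 to Hoxb8 was called by edgeR with the filter on low counts. Hoxb3, Hoxb4, Hoxb5, Hoxb6, Hoxb7 and Hoxb8 had over 3 reads in all proximal Cdx2-sgRNA libraries in both media, with log2 fold changes from −1.01 (Hoxb3 in WENR-plus) to 1.15 (Hoxb5 in WENR-minus medium). Hoxb5 was called higher in WENR-minus medium by DESeq2 (1.20, adjusted p = 0.0249) and by edgeR without the filter (1.18, adjusted p = 0.0424). Hoxb6, for one, had 1169 and 1431 reads in WENR-plus Cdx2-sgRNA libraries beside 1495 and 1260 with the scramble-sgRNA. Hoxb13 had 8 to 18 reads in the 8 proximal libraries (adjusted p = 0.92 and 0.381).

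Hoxb9 was the member that edgeR called higher. It had 1002 and 1238 reads in proximal scramble-sgRNA WENR-minus libraries and 2976 and 3936 with the Cdx2-sgRNA, which do not overlap (log2 fold change 1.76, SE 0.20, adjusted p = 8.99e-05, edgeR). In WENR-plus medium it had 1852 and 1320 against 2727 and 2774 reads. The log2 fold change of 0.87 (SE 0.20) passed the p threshold (adjusted p = 0.00843) but not the fold threshold. In TPM Hoxb9 led all members in proximal Cdx2-sgRNA organoids, with 143.4 ± 19.6 (SD, n = 2) without niche factors and 95.3 ± 7.18 with them, that is 43.1% and 35.5% of the TPM of the members.

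Nor was any gene of the d cluster called. Hoxd8 had 157 and 433 reads in WENR-plus and 130 and 371 in WENR-minus Cdx2-sgRNA libraries, where replicate 2 was the higher one, and was not called (adjusted p = 0.985 and 0.179, edgeR). Hoxd9 had 25 and 114, then 29 and 31 reads, beside 21 and 15, then 8 and 4 with the scramble-sgRNA. Its libraries did not overlap in either medium. The log2 fold change of 1.98 (SE 0.80, adjusted p = 0.107) and 2.42 (SE 0.86, adjusted p = 0.0643) did not pass the test. Without the filter on low counts Hoxd9 was called in both media (adjusted p = 0.0454 and 0.0186).

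**Figure D4:**
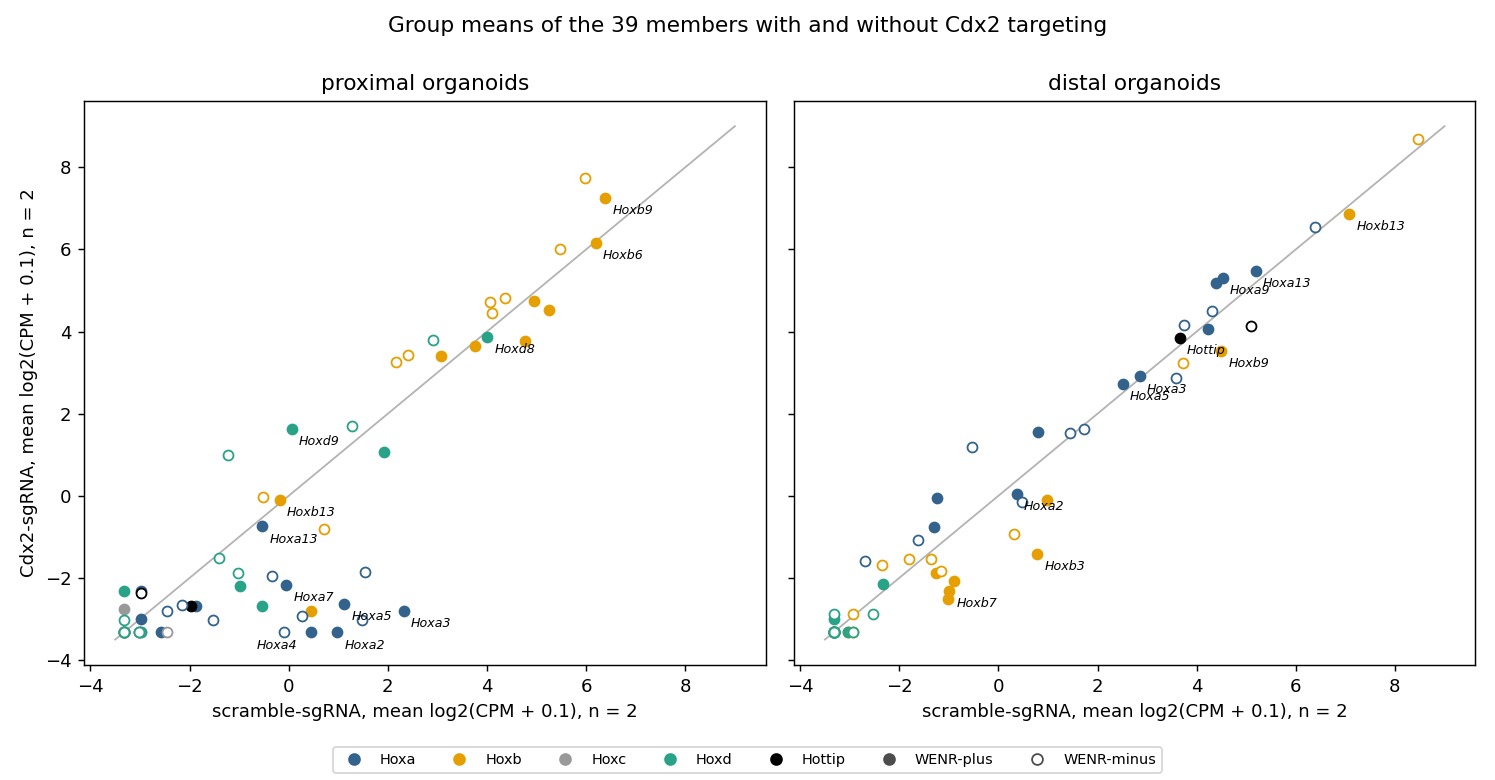
Mean log2(CPM + 0.1) of 2 libraries for each of the 39 members with the scramble-sgRNA (horizontal axis) and the Cdx2-sgRNA (vertical axis), in proximal (left) and distal organoids (right), coloured by cluster, with WENR-plus medium as filled and WENR-minus as open points and a line of equality. In proximal organoids Hoxa2, Hoxa3, Hoxa4 and Hoxa5 lie near the bottom edge and Hoxb9 above the line. In distal organoids the members of high level lie near the line.

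In distal organoids no member was called between the guides in either medium by edgeR. Of 15289 tested genes, 802 were called there without niche factors and 40 with them, so that 0 of 24 members is near the background. At an unadjusted p under 0.05, there were 3 members without niche factors (3984 of all tested genes) and 6 with them (973). DESeq2 called none and then 1, Hoxb3 (−1.90, adjusted p = 0.0255). With niche factors and without the filter on low counts, edgeR called Hoxb3 (adjusted p = 0.00064), Hoxb7 (0.0427) and Hoxb9 (0.000392), all lower. Hoxa3 had 163 and 115 reads with the scramble-sgRNA and 121 and 150 with the Cdx2-sgRNA in WENR-plus medium. Hoxb13 had 4714 and 4745 against 4903 and 4831 in WENR-minus medium (log2 fold change 0.22, SE 0.23, adjusted p = 0.586). Hottip had 384 and 543 against 189 and 226 in WENR-minus medium, lower without overlap of the libraries (log2 fold change −0.97, SE 0.31, adjusted p = 0.07), and 215 and 271 against 250 and 271 in WENR-plus medium (0.18, SE 0.31, adjusted p = 0.981).

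Hoxb9 was lower with the Cdx2-sgRNA in distal organoids, where it had 551 and 341 against 195 and 219 reads in WENR-plus medium. That log2 fold change of −1.01 (SE 0.20) had the smallest p of the members there and did not pass the adjustment over all genes (adjusted p = 0.0808, edgeR). Without the filter on low counts it was called, at −1.02 (adjusted p = 0.000392). In WENR-minus medium it was −0.50 (SE 0.21, adjusted p = 0.16). Hoxa9 and Hoxa10 moved the other way in WENR-plus medium without being called, from 460 and 423 to 655 and 780 reads (0.78, SE 0.26, adjusted p = 0.463) and from 415 and 390 to 556 and 771 reads (0.80, SE 0.36, adjusted p = 0.771).

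The effect of the Cdx2-sgRNA was then compared between the regions by the contrast of both effects, proximal minus distal. In WENR-minus medium 5 members passed, 1 higher and 4 lower (5.17% and 9.08% of all tested genes), and in WENR-plus medium 5 passed, 1 higher and 4 lower (1.22% and 3.76%). The higher one was Hoxb9 in both media, with a log2 difference of 2.26 (SE 0.29, adjusted p = 0.000483, edgeR) and 1.88 (SE 0.28, adjusted p = 0.00293). The lower ones were Hoxa2 (adjusted p = 0.0187), Hoxa3 (0.00157), Hoxa5 (0.0225) and Hoxa13 (0.00131) in WENR-minus medium and Hoxa2 (0.0146), Hoxa3 (0.0012), Hoxa4 (0.0317) and Hoxa5 (0.0265) in WENR-plus medium. For Hoxa13 the log2 difference was −4.15 (SE 0.62), and for the others a proximal group was at the floor and no size is given. Without single libraries, Hoxa4 lost its call for each of the 8 left out in turn (adjusted p = 0.051 to 0.104), Hoxa5 for 6 of 8 in WENR-plus (0.0524 to 0.0829) and 3 of 8 in WENR-minus medium (0.0533 to 0.103), and Hoxa2 without proximal scramble-sgRNA replicate 1 (0.0505) or proximal Cdx2-sgRNA replicate 2 (0.0535) in WENR-plus and without proximal Cdx2-sgRNA replicate 2 (0.0721) in WENR-minus medium. On the contrast's own libraries Hoxa2 (0.0502) and Hoxa5 (0.0726) lost their calls in WENR-plus medium, and without the filter on low counts Hoxb6 was added in WENR-minus (0.0043) and Hoxa7 (0.0016) and Hoxb7 (0.0388) in WENR-plus medium.

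Other measures differed in the same libraries. The sum over 5 immune markers was 2.53 to 21.9 CPM in proximal Cdx2-sgRNA libraries and at most 0.982 elsewhere. It came from Csf1r, at 35 to 261 reads beside at most 13 elsewhere, while Ptprc, the defining pan-leukocyte marker, had at most 12 reads. The sum over 11 mesenchymal markers was 0.772 to 1.36 there and 3.60 to 18.1 elsewhere, with Vim at 0 to 8 reads and Pdgfrb at 1 or 2 there, beside 20 to 175 and 29 to 138 elsewhere. Of the 8 epithelial markers, Epcam (from 30235 and 34441 to 5988 and 9612 reads), Vil1 and Cldn7 were called lower in proximal Cdx2-sgRNA WENR-minus organoids. In WENR-plus medium Cldn7 was called lower and Krt20 higher. Of the 5 markers of nerve and glia, Elavl4 and Tubb3 were called lower in WENR-plus medium, from 7 to 22 reads to 0 to 2. Their part in the Hox values was not tested. In bulk RNA, fewer cells that express a gene and less of its RNA per cell cannot be told apart.

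The third comparison asked what WENR-plus medium changed against WENR-minus. Libraries of the same number correlated between the media of a region and guide (0.281 to 0.589), and the fit did not model this pairing. In proximal scramble-sgRNA organoids 1 member was called by edgeR, Hoxa13, lower in WENR-plus medium, beside 8.73% of all tested genes. The median log2 fold change of the 24 members was 0.89, toward WENR-plus medium, beside 0.06 over all tested genes. Hoxa13 went from 30 and 80 reads to 8 and 15 (log2 fold change −2.29, SE 0.42, adjusted p = 0.00236, edgeR). On the comparison's own libraries Hoxa13 lost this call (−2.26, adjusted p = 0.0558) and Hoxd8 was called higher in its place (1.11, adjusted p = 0.0409), and without the filter on low counts Hoxb4 (adjusted p = 0.00819) and Hoxd8 (0.0258) were added. In proximal Cdx2-sgRNA organoids no member was called by edgeR or DESeq2, and 1 had an unadjusted p under 0.05. Of 15289 tested genes, edgeR called 978 there, and 4387 had an unadjusted p under 0.05. The median log2 fold change was 0.00 for the members and 0.03 over all tested genes. The effect of the medium on Hoxa13 differed between the guides by a log2 difference of 3.69 (SE 0.78, adjusted p = 0.0313), the only member edgeR called in that contrast (1.93% of all tested genes were called higher). DESeq2 also called Hoxb3 there (−1.37, adjusted p = 0.0375). The call of Hoxa13 was lost on the libraries of the contrast alone (adjusted p = 0.126, edgeR). It was also lost without proximal scramble-sgRNA WENR-plus replicate 1 (adjusted p = 0.077), Cdx2-sgRNA WENR-plus replicate 1 (0.0839) or 2 (0.0663), or Cdx2-sgRNA WENR-minus replicate 1 (0.0506) or 2 (0.0955).

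In distal scramble-sgRNA organoids 5 of the 24 members were called, 2 higher and 3 lower in WENR-plus medium. Of all tested genes 14.2% and 12.2% were called, so that both shares of the members are near or below the background. The median log2 fold change of the members was 0.75, beside 0.11 over all tested genes. Hoxb13 went from 4714 and 4745 to 2980 and 2282 reads (log2 fold change −1.37, SE 0.23, adjusted p = 0.000823, edgeR), Hoxa13 from 1153 and 1087 to 710 and 691 (−1.20, SE 0.30, adjusted p = 0.00812) and Hottip from 384 and 543 to 215 and 271 (−1.43, SE 0.31, adjusted p = 0.00351). None of the 3 overlapped between the media. Of the 8 epithelial markers 7 were called lower in the same comparison, as was the endothelial marker Pecam1. With the Cdx2-sgRNA 7 of the 8 epithelial markers were called lower too. The part of these markers in the Hox values was not tested. The members called higher were Hoxb3, from 5 and 1 to 27 and 36 reads (2.83, SE 0.75, adjusted p = 0.0111, edgeR), and Hoxb5, from 0 and 1 to 5 and 11 (at least 1.89-fold, adjusted p = 0.0392). Hoxa9 (0.77, SE 0.26, adjusted p = 0.0345) and Hoxb9 (0.79, SE 0.20, adjusted p = 0.00891) passed the p threshold only. By DESeq2 and on the comparison's own libraries Hoxb5 was not called (adjusted p = 0.057 and 0.101) and Hoxa3 was called higher (adjusted p = 0.0235 and 0.0349).

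With the Cdx2-sgRNA 4 members were called in distal organoids, 2 higher and 2 lower, again no larger a share than among all tested genes (18.1% and 14.9%). The median log2 fold change of the members was 0.45, beside 0.10 over all tested genes. Hoxb13 fell from 4903 and 4831 to 2714 and 1649 reads (log2 fold change −1.75, SE 0.23, adjusted p = 0.000113, edgeR) and Hoxa13 from 1035 and 1182 to 669 and 970 (−1.06, SE 0.30, adjusted p = 0.0129). Hoxa9 rose from 219 and 202 to 655 and 780 reads (1.15, SE 0.26, adjusted p = 0.00361) and Hoxa3 from 28 and 45 to 121 and 150 (1.28, SE 0.46, adjusted p = 0.0401). With length-scaled counts both lost their calls, Hoxa9 at 0.96 (adjusted p = 0.0932) and Hoxa3 at 1.13 (adjusted p = 0.0889). Hoxa7 was added on the comparison's own libraries (adjusted p = 0.013, edgeR) and without the filter on low counts (0.0086). Hottip had 189 and 226 against 250 and 271 reads (−0.28, SE 0.31, adjusted p = 0.478). The difference of its medium effect between the guides, 1.15 (SE 0.43), did not pass (adjusted p = 0.437, edgeR). No member was called in that contrast by edgeR or DESeq2, with 1 at an unadjusted p under 0.05. Of 15289 tested genes, edgeR called 0 in it, and 1457 had an unadjusted p under 0.05.

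Some calls of the medium comparison in distal organoids were also lost when a library was left out. With the scramble-sgRNA Hoxb5 lost its call without WENR-plus replicate 2 (adjusted p = 0.21, edgeR) or WENR-minus replicate 1 (0.192) or 2 (0.0587), Hoxb3 without WENR-plus replicate 2 (0.0615) or WENR-minus replicate 2 (0.0895), and Hoxa13 without WENR-minus replicate 1 (0.0516). With the Cdx2-sgRNA Hoxa3 lost its call without each of the 4 libraries in turn (adjusted p = 0.0639 to 0.208, edgeR), with differences of 0.98 to 1.59 on the log2 scale, and Hoxa13 without WENR-plus replicate 1 (0.0676). The region difference itself was compared between the media in scramble-sgRNA organoids, and no member was called by edgeR or DESeq2, with 3 at an unadjusted p under 0.05. Of 15289 tested genes, edgeR called only 11 in that contrast, and 1503 had an unadjusted p under 0.05. For Hoxb13 the log2 difference of WENR-minus minus WENR-plus medium was −1.72 (SE 0.45, adjusted p = 0.242), and it was called without the filter on low counts (−1.71, adjusted p = 0.00463), as was Hoxb3 (adjusted p = 0.029).

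The reads of a gene come from several transcripts, which Salmon divides by estimate. Hoxb13, Hoxa2, Hoxa4, Hoxa5, Hoxa6, Hoxb4 and Hoxd9 had all their reads on 1 transcript. The leading transcript held 98.6% of the reads of Hoxb9, 97.2% of those of Hoxa13 and 79.3% of those of Hottip. A transcript with a retained intron held 63.5% of the reads of Hoxb5, and one annotated for nonsense-mediated decay 34.0% of those of Hoxa7. Hoxb3 shares 52.9% of its exonic bases with the antisense gene Hoxb3os, Hoxa11 35.0% with Hoxa11os, Hoxb2 27.3% with Hoxb3os and Hoxa7 20.4% with Hoxaas3. Hoxd4 shares 39.2% of its exonic bases with Gm28230 on the same strand and 13.2% with Hoxd3. Also on the same strand, Hoxa2 shares 15% and Hoxa3 8.02% with Gm28308, and Hottip 12.5% with Gm27383, 6.77% with Gm27985 and 5.94% with Gm27866. The library kit keeps the strand, but reads in the exons shared on a strand are divided by estimate, so that the values of Hoxd3, Hoxd4, Hoxa2, Hoxa3 and Hottip are uncertain.

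Other RNAs of the clusters and the partners of Hox proteins were read from lists. Of 15 neighbours of the clusters 13 were matched and 7 tested. Between the regions with the scramble-sgRNA, Hoxa11os, antisense to Hoxa11, was lower in proximal organoids, with 381 and 506 against 2 and 0 reads in WENR-plus medium (at least 144-fold, adjusted p = 3.01e-05, edgeR). Hoxb5os was higher, with 42 and 44 reads against none (at least 14.8-fold, adjusted p = 0.0156). Hoxb3os was called higher only in WENR-minus medium (at least 4.5-fold, adjusted p = 0.0345).

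Between the guides in proximal organoids Hoxaas3, an antisense RNA of the a cluster, fell from 229 and 194 to 2 and 2 reads in WENR-plus medium (at least 67.4-fold, adjusted p = 0.000246, edgeR). In WENR-minus medium it fell from 59 and 114 to 1 and 0 (at least 25.2-fold, adjusted p = 0.000307). Hotairm1, which starts between the first genes of that cluster, fell from 16 and 5 to 0 and 1 reads in WENR-plus medium (at least 3.19-fold, adjusted p = 0.0185). In distal WENR-minus organoids Hoxaas3 also fell, from 64 and 50 to 2 and 10 reads (log2 fold change −3.06, SE 0.69, adjusted p = 0.0212), while no Hox gene was called there. Skap2 and Mtx2, the genes that flank the a and d clusters, were called in no comparison.

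Of 9 cofactor genes, whose products bind DNA together with Hox proteins, 8 were tested. Meis1 was lower in proximal organoids with both guides and in both media, at 0 to 2 reads beside 12 to 102 in distal libraries (with the scramble-sgRNA at least 18.7-fold in WENR-plus, adjusted p = 0.0462, and at least 13.2-fold in WENR-minus medium, adjusted p = 0.0207, edgeR). None of the 8 was called between the guides in either region or medium. Wdr5, which binds Hottip, was not called between the regions with the scramble-sgRNA. With the Cdx2-sgRNA it was called higher in proximal than in distal WENR-minus organoids (236 and 244 against 100 and 74 reads). It was higher in WENR-plus medium in distal organoids, by 1.25 (SE 0.30, adjusted p = 0.00606, edgeR) with the scramble-sgRNA and 1.86 (SE 0.31, adjusted p = 0.000478) with the Cdx2-sgRNA.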

How the data were processed

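RNA of 16 organoid cultures was made into libraries with a stranded total RNA kit (SMARTer) and sequenced on a HiSeq. The authors quantified the reads with Salmon 1.1.0 against GENCODE transcripts (mm10), and deposited 1 table per library with estimated counts and TPM per transcript, beside transcript lengths and effective lengths. The study's own gene test was DESeq2, used here as an alternative.

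Transcripts were joined to genes with GENCODE vM21, an older release than the vM23 named in the study's methods. It matched 139864 of 140748 transcripts, and the 884 others held at most 0.509% of a library's counts. Gene sums of the deposited estimated counts were rounded to whole numbers and tested in R 4.3.3 with edgeR 4.0.16 (filterByExpr, TMM, quasi-likelihood F test, all 16 libraries in 1 group-means fit, 8 residual degrees of freedom). Standard errors were derived as the size of the log2 fold change over the root of F. P-values were Benjamini-Hochberg adjusted over all tested genes within each of 12 comparisons and 5 contrasts of effects. TPM were used as deposited, summed per gene. The scripts were tested on simulated data.

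The members, gene lists and tests were chosen with earlier results of these data known. The rule for named genes was to give values for each member that passed the filter or had over 3 reads in a library, with full statistics for called ones. Some called members are given here by their log2 fold change or bound alone. Genes outside the list are named only from fixed lists of cofactors, cluster neighbours, Cdx genes, Wdr5 and markers. Alternatives were RLE factors, DESeq2 1.42.0, no filter, no fold threshold, length-scaled counts, a replicate block, the comparison's own libraries, and leaving out each library. Sequences are from RefSeq. Some further genes are not reported here.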

Additional observations from a re-analysis of the deposited data

Results flagged for a closer look

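The effect of the Cdx2-sgRNA differed between proximal and distal organoids for 6 members, by the edgeR contrast of the effects with adjustment over all tested genes. In WENR-minus medium the adjusted p was 0.0187 for Hoxa2, 0.00157 for Hoxa3, 0.0225 for Hoxa5, 0.00131 for Hoxa13 (log2 difference −4.15, SE 0.62) and 0.000483 for Hoxb9 (2.26, SE 0.29). In WENR-plus medium it was 0.0146 for Hoxa2, 0.0012 for Hoxa3, 0.0317 for Hoxa4, 0.0265 for Hoxa5 and 0.00293 for Hoxb9 (1.88, SE 0.28). In the medium in which each gene is named, both proximal Cdx2-sgRNA libraries lay below both scramble-sgRNA libraries for the a-cluster genes and above them for Hoxb9. As given above, the calls of Hoxa2, Hoxa4 and Hoxa5 were lost when some single libraries were left out. On the contrast's own libraries Hoxa2 (adjusted p = 0.0502, edgeR) and Hoxa5 (0.0726) lost theirs in WENR-plus medium.

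The effect of WENR-plus medium on Hoxa13 was called different between the guides in proximal organoids. The adjusted p was 0.0313 in edgeR and the log2 difference 3.69 (SE 0.78). The proximal scramble-sgRNA libraries fell from 30 and 80 to 8 and 15 reads in WENR-plus medium, while the Cdx2-sgRNA libraries went from 2 and 4 to 10 and 8. These are low counts. The call was lost on the libraries of the contrast alone (adjusted p = 0.126, edgeR) and, as given above, when some single libraries were left out.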

How the results depend on the processing

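The 106 member calls and a set of uncalled values made up 125 results, and the other uncalled values in the text were compared only through their calls. Under RLE factors and under the replicate block each kept its direction and its side of the threshold. DESeq2 moved 1 below the threshold, length-scaled counts 2 and the comparison's own libraries 12, while no filter moved 4 of them past it and, with members outside the 125, added the calls counted next. The libraries with the same number correlated at 0.281 to 0.589 between the media of a region and guide, and at −0.0594 to 0.189 in the other pairings. The main fit took the libraries as independent, and the block was a term for replicate number shared by all groups. Neither modelled this pairing within a region and guide, so that calls in both media are not independent of each other. Outside the 125, the replicate block added Hoxb2 for the Cdx2-sgRNA in proximal WENR-plus organoids (6 in place of 5 calls, adjusted p = 0.048, edgeR).

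Counts of member calls that moved over 1.5 times were as follows. DESeq2 gave 1 for the Cdx2-sgRNA in distal WENR-plus organoids and 2 for the difference of medium effects in proximal organoids. No filter gave 9 for the Cdx2-sgRNA in proximal WENR-minus organoids, 3 for it in distal WENR-plus organoids, 3 for the medium in proximal scramble-sgRNA organoids and 2 for the difference of region effects between the media. Length-scaled counts gave 2 for the medium in distal Cdx2-sgRNA organoids. The comparison's own libraries gave 3 for the Cdx2-sgRNA in proximal WENR-plus organoids, 3 for its difference between the regions there, and 0 for the difference of medium effects in proximal organoids. The cause was not tested.

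With 1 library left out, the lone library of its group is assumed to vary like the others. The counts ran from 3 to 5 and from 2 to 4 for the difference of Cdx2-sgRNA effects between the regions in WENR-minus and WENR-plus medium, from 0 to 1 for the difference of medium effects in proximal organoids, and from 2 to 3 and from 3 to 6 for the medium in distal Cdx2-sgRNA and scramble-sgRNA organoids. Of 106 calls 82 were kept without any single library. Results below the threshold that changed sign, all for the Cdx2-sgRNA in WENR-plus medium, ran from −0.033 to 0.45 for Hottip in distal organoids, from −0.64 to 0.23 for Hoxb13 in distal organoids and from −0.77 to 0.41 for Hoxa13 in proximal organoids. Counts under about 10 reads limit Hoxa4, Hoxa6, Hoxa11 and Hoxd1. In some of the groups compared they also limit Hoxa7 and Hoxa13 in proximal organoids and Hoxb3 and Hoxb5 in distal ones.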
